A study of Mus musculus with 4 samples.

Results

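Heat shock proteins and chaperonins are the proteins that help other proteins fold. They were read here from 110 probes for 82 genes, out of 39429 probes for 31829 gene names on the array. A probe was taken when its gene name in the scanner files began with Hsp, Dnaj, or Cct and a digit, or was Tcp1, Ahsa1, Fkbp4, Stip1 or Hsf1, and the endoplasmic reticulum members Hspa5, Hsp90b1, Dnajb9, Dnajb11 and Dnajc3 and names beginning with Hspg were left out. The names decide membership, so the set is not cytosolic and nuclear throughout. For example, Hspd1, Hspe1, Hspa9, Dnaja3, Dnajc15 and Dnajc19 encode mitochondrial proteins. Hspa13, Dnajc1, Dnajc10 and Dnajb14 are examples of genes for proteins of the endoplasmic reticulum or its membrane, and neither list is complete.

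The study cultured splenocytes, the mixed cells of the spleen, of female C57BL/6 mice aged 8 weeks. All cultures received interleukin-4 (IL-4), a T helper cytokine, and lipopolysaccharide (LPS), a bacterial cell wall component that activates B cells and macrophages, for 72 h. The imatinib group also received 10 µM imatinib, an inhibitor of the tyrosine kinases ABL, KIT and the PDGF receptor, and the control group received none. Each group has 2 Agilent 1-colour arrays. The labels do not say whether the 2 arrays of a group came from separate mice or cultures, so the p-values measure only the spread between these arrays, which may be technical.

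As background, newly made proteins in the cytosol are met by HSP40 and HSP70. HSP40 proteins carry a J domain, which makes HSP70 split ATP and hold on to an unfolded chain. Some chains pass on to HSP90 and its co-chaperones, which finish signalling proteins such as kinases and steroid receptors. Others, above all actin and tubulin, go into the chaperonin TRiC, a double ring of different CCT subunits. HSF1 is the transcription factor that binds heat shock elements, repeats of the unit GAA in alternating orientation, and raises many of these genes after heat or other protein damage. Activated lymphocytes make much protein and are known to hold high levels of many chaperones.

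Heat shock elements were looked for in the 85 RefSeq promoter windows (GRCm38.p6) that matched 66 of the 82 genes; each window runs from 250 bases before to 50 bases after a transcription start. An element of 3 units was written GAANNTTCNNGAA, or TTCNNGAANNTTC on the other strand, where N is any base. It was found in 6 of these 85 windows (7.06%), which belong to 4 genes, and in 198 of the 32851 windows of all genes (0.603%). The 4 genes were Hspd1, Hspe1, Hsph1 and Dnajb6. Their elements are printed because at least 1 probe of each gene was called lower with imatinib, and because Hspd1 and Hspe1 share theirs. In Dnajb6 this was 1 of 4 probes and not the brightest, and in Hspe1 it was 2 of 3, as given below. Capitals mark the bases of the element, and each run reads 5′ to 3′.
Hspe1 and Hspd1, chr1:55088053-55088082, plus strand: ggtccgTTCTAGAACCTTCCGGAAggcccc
Hsph1, chr5:149636282-149636306, minus strand: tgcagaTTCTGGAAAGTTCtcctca
Dnajb6, chr5:29735846-29735870, plus strand: ctccgaGAATCTTCCGGAAcgctag

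The Hspe1 start and the nearer Hspd1 start face away from each other 216 bases apart, and the 18 bases in capitals between them hold 2 overlapping matches. Hspd1 and Hspe1 encode the partner proteins HSP60 and HSP10 of the mitochondrial chaperonin. In Hsph1 the match begins at base 16 in the window shown, counted with the start as the first base. In Dnajb6 it begins 46 bases before the start. A shorter element of 2 units, GAANNTTC, which reads the same on both strands and is contained in the longer one, was found in 18 of the 85 windows (21.2%) and in 2582 of all 32851 (7.86%). A match is a run of letters and was not tested as a binding site. Windows for 16 genes, among them Hspa8, Hsp90aa1, Hsp90ab1 and Hsf1, were not analysed here.

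The level of a probe is the log2 of its processed signal minus the 75th percentile of all spots on the array, so 0 is the level of a fairly bright spot. Between 24983 and 26741 of the 39429 probes were well above background on an array, and no spot was saturated. Over the 25375 probes tested below, replicate arrays correlated at 0.998 (imatinib) and 0.997 (control), and arrays of different groups at 0.982 to 0.984. In the imatinib arrays the summed level of 12 T cell marker genes was 49.7 and 49.7, against 24.6 and 23.9 in the control arrays, as multiples of the 75th percentile. That of 9 macrophage genes was 10.7 and 11.2 against 4.31 and 4.20, that of 12 B cell genes 353 and 358 against 398 and 371, and that of 7 neutrophil genes 3.01 and 3.32 against 3.53 and 3.28. A sum is set mostly by the brightest genes. The median log2 differences of the same genes, imatinib minus control, were 1.39, 0.52, -0.37 and 0.95 in this order. Markers called higher and lower numbered 10 and 0 for T cells, 5 and 0 for macrophages, 2 and 7 for B cells, and 5 and 1 for neutrophils. The shares of all tested probes were 19.3% higher and 22.5% lower. The macrophage genes C1qa, C1qc and Cd163 were not well above background on any array, and the neutrophil gene Ltf was so on 1 imatinib array only. The part of these marker differences in the chaperone results was not tested. In RNA of mixed cells, fewer cells of a type and less RNA per cell cannot be told apart.

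Of the 110 probes, 96 for 70 genes were well above background on every array of the imatinib group, of the control group or of both, and were tested with limma, with Benjamini-Hochberg adjustment over all 25375 tested probes and an adjusted p of 0.05 as the threshold for a call. With imatinib 46 of the 96 were called lower (47.9%), 12 higher (12.5%) and 38 were not called. Over all tested probes 22.5% were called lower and 19.3% higher. Of the 12 called higher, 3 (Dnajc28, Dnajc5b and Dnajb13) were well above background in the imatinib group alone and entered the test only through it. In a fit of only the probes well above background on all 4 arrays, 9 of these 12 and all 46 lower calls remained; in that fit 48 of the 93 chaperone probes were called lower and 11 higher, against 24.8% and 19.4% of all probes. The median log2 difference, imatinib minus control, was -0.23 for the chaperone probes and 0.00 for all tested probes, and 70 of the 96 lay below 0 (72.9%, against 49.9% of all tested probes). For 83 of the 96 the arrays of the 2 groups did not overlap (86.5%, against 73.7%).

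Taking the brightest probe for each gene, 29 of 70 genes were called lower, 12 higher and 29 were not called, with a median of -0.20. The 12 include Dnajc28, Dnajc5b and Dnajb13, which entered the test only through the imatinib group. They also include Dnajc19, whose brightest probe holds a TG repeat described below and whose other probe was called lower. Counted by probe, 22.5% of all tested probes were called lower and 19.3% higher. The share by brightest probe over the array was not computed. The chaperone probes were bright for the most part, and bright probes as a whole lay lower. Of the 9543 tested probes with a mean level above 0, 34.2% were called lower and 14.4% higher, with a median of -0.11. The 57 chaperone probes among them had 61.4% called lower, 8.77% called higher and a median of -0.32. The differences were small in size, and only 1 of the 96 reached 2-fold. Without imatinib array 1 the calls were 13 lower and 7 higher, where 6.13% of all tested probes were lower and 10.1% higher. Without imatinib array 2 they were 10 and 7, against 6.4% and 9.53% of all. Without control array 1 they were 33 and 11, against 16.4% and 18.5%, and without control array 2 they were 33 and 9, against 14.5% and 14.0%. The median was between -0.25 and -0.24 in each of these fits. With dim probes kept in the test, which brings the number tested over the array to 39337, 16 chaperone probes were called lower and 6 higher, against 5.42% and 7.21% of all.

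**Figure D1:**
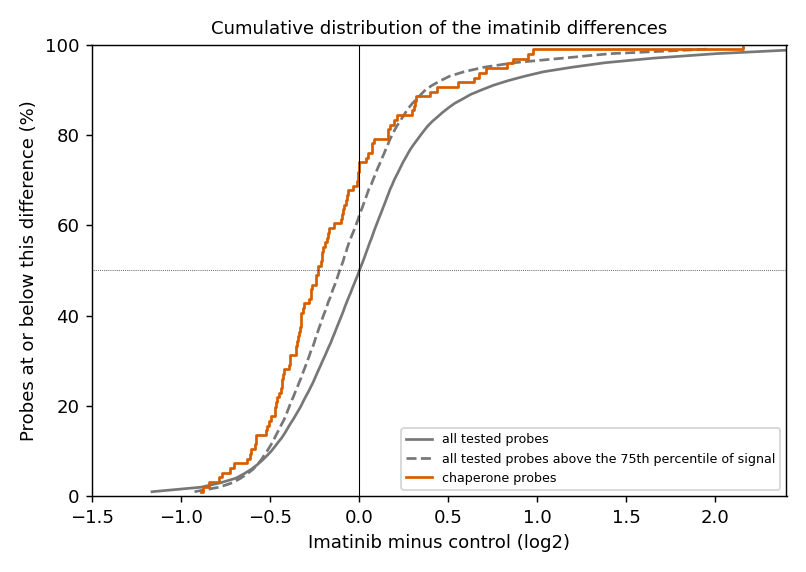
Cumulative percentage of probes (vertical axis) at or below each log2 difference, imatinib minus control (horizontal axis), for the 96 tested chaperone probes (stepped line), all 25375 tested probes (solid line) and the 9543 of them with a mean level above the 75th percentile of signal (dashed line). The stepped line crosses 50% at -0.23, left of the dashed line at -0.11 and the solid line at 0.00, and the largest chaperone difference, 2.16, is that of a Dnajc19 probe.

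Of the 9 tested probes of the cytosolic chaperonin, 8 were called lower with imatinib, 0 higher and 1 was not called. The shares of all tested probes were 22.5% lower and 19.3% higher. Among tested probes with a mean level above 0 they were 34.2% and 14.4%. All 8 of the subunits of the ubiquitous ring that are named in the rule, Tcp1 (the first subunit, CCT1), Cct2, Cct3, Cct4, Cct5, Cct6a, Cct7 and Cct8, fell with imatinib, to between 54.4% and 83.2% of the control level. Cct6a had levels of 0.63 and 0.41 in the imatinib arrays and 1.29 and 1.51 in the control arrays, a difference of -0.88 ± 0.12 (SE, n = 2 and 2; limma adjusted p = 0.0104). Cct3 stood at 3.34 and 3.35 with imatinib and at 3.95 and 3.95 without, a difference of -0.61 ± 0.06 (limma adjusted p = 0.00478). In both genes each imatinib array was below each control array, and the gap between groups was larger than the gap between replicates. Groups without overlap were common, at 73.7% of all tested probes.

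Cct8 had 3.63 and 3.55 with imatinib against 4.14 and 4.21 in the controls, and fell by 0.58. Tcp1 had 3.94 and 3.96 against 4.43 and 4.51, and fell by 0.52. The other subunits fell by less: Cct5 by 0.34, Cct7 by 0.33, Cct2 by 0.31 and Cct4 by 0.27, with adjusted p from limma of 0.0187, 0.0225, 0.0327 and 0.0458. Cct6b, the subunit that stands in for Cct6a in testis, had -4.21 and -3.98 with imatinib and -4.30 and -4.21 without, a difference of 0.16 that was not called (95% interval -0.11 to 0.44). Cct8l1, a testis relative of Cct8, was not well above background on any array. The calls of Cct3 and Cct6a remained when any 1 array was left out; 3 of the 8 were left without imatinib array 1, 2 without imatinib array 2, and 6 without either control array, with differences between -0.99 and -0.21 over these fits.

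Of the 5 members of the HSP90 system, 4 were called lower and 0 higher. The shares of all tested probes were 22.5% lower and 19.3% higher. Among tested probes with a mean level above 0 they were 34.2% and 14.4%. Hsp90aa1, the stress-inducible cytosolic HSP90, had 5.32 and 5.29 in the imatinib arrays and 5.81 and 5.73 in the control arrays, and fell by 0.47 to 72.4% of the control level (SE 0.07; limma adjusted p = 0.0106). Hsp90ab1, the constitutive form of the same protein, had 7.71 and 7.71 against 7.75 and 7.69. Its arrays overlapped and its difference of -0.01 was not called, with a 95% interval of -0.18 to 0.16. The difference of Hsp90aa1 was lower than that of Hsp90ab1 by 0.46 (log2), without overlap of the arrays; the exact permutation p was 0.333, the smallest that 2 arrays a group allow.

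All 3 co-chaperones fell. Fkbp4, the immunophilin that carries steroid receptors with HSP90, had 0.19 and 0.32 with imatinib against 0.80 and 0.93, a fall of 0.61. Ahsa1, which activates the HSP90 ATPase, had 5.19 and 5.17 against 5.68 and 5.63, a fall of 0.47. Stip1, the adaptor that joins HSP70 to HSP90, had 2.43 and 2.46 against 2.90 and 2.86, a fall of 0.43. In each of the 3 the groups did not overlap, as in 73.7% of all tested probes. The adjusted p from limma were 0.0108, 0.00846 and 0.0102. None of the 4 calls remained without imatinib array 1, where the differences ran from -0.55 to -0.41 (0 calls by limma at the adjusted threshold), 1 (Fkbp4) remained without imatinib array 2, and all 4 remained without either control array.

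Hsf1, the regulator, was not called. Its probe read 1.22 and 1.30 with imatinib and 1.31 and 1.24 without, a difference of -0.01 with a 95% interval of -0.20 to 0.17, and the groups overlapped.

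Hspd1, Hspe1, Hspa9 and Dnaja3, the mitochondrial chaperonin and the mitochondrial HSP70 with its J protein, have 6 probes. Of these 4 were called lower, 0 higher and 2 were not called (limma), against 22.5% lower and 19.3% higher over all tested probes. Further mitochondrial J proteins, such as Dnajc15 and Dnajc19, are given with class C below. Hspd1, the mitochondrial HSP60, had 5.47 and 5.37 with imatinib against 5.95 and 5.92, and fell by 0.52 to 69.9% of control (limma adjusted p = 0.00915). Hspe1, its lid HSP10, has 3 probes, which differed by -0.28, -0.24 and -0.17. The first 2 were called and the third was not (limma adjusted p = 0.135). Hspa9, the mitochondrial HSP70 or mortalin, fell by 0.35, from 4.57 and 4.65 to 4.29 and 4.23. Its J protein Dnaja3 had 2.22 and 2.09 against 2.33 and 2.36, a difference of -0.19 that was not called. Hspd1 and Hspe1, which share the element printed above, thus were both lower, with Hspd1 the further below control in these probes; whether the 2 genes differ was not tested. Of the 4 calls, 1 (Hspd1) remained without imatinib array 1, 0 without imatinib array 2 (limma; differences -0.47 to -0.23), 2 without control array 1 and 1 without control array 2.

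**Figure D2:**
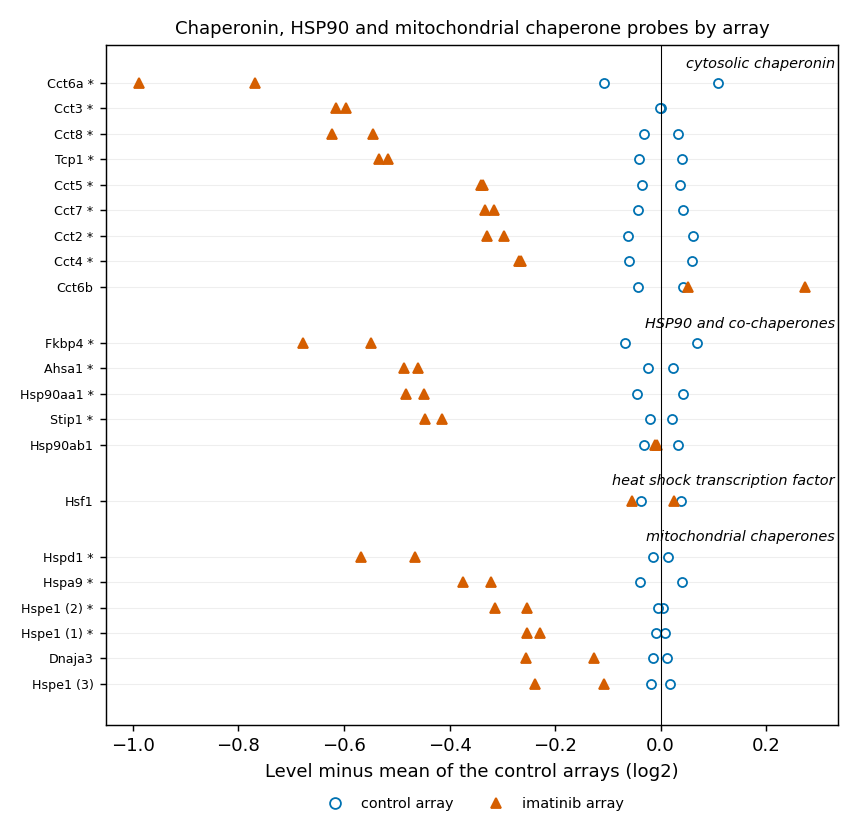
Level of each tested probe on each array minus the mean of the control arrays (horizontal axis, log2) for the chaperonin, HSP90, Hsf1 and mitochondrial probes; triangles are the 2 imatinib arrays, circles the 2 control arrays, an asterisk marks a call, and numbers in brackets count the probes of a gene from the brightest. The triangles of the 8 ring subunits, of Hsp90aa1 and its co-chaperones and of Hspd1 sit to the left of all circles, while those of Hsp90ab1 and Hsf1 sit among the circles.

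HSP70 genes split by member. Of 16 tested probes for 10 genes, 9 were called lower, 2 higher and 5 were not called, against 22.5% lower and 19.3% higher over all tested probes. The largest fall was that of Hsph1, or HSP110, which acts as a nucleotide exchange factor that makes HSP70 release its client. Its brighter probe had 2.66 and 2.61 with imatinib against 3.35 and 3.37, and its other probe 1.03 and 0.95 against 1.74 and 1.81. The falls of 0.73 and 0.79 (limma adjusted p = 0.00367 and 0.004) left 60.5% and 57.9% of the control level, and both calls remained when any 1 array was left out.

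Hspa4 and Hspa4l are relatives of Hsph1 with the same role, and their brightest probes moved in opposite directions. Hspa4 had 5.07 and 5.08 with imatinib against 5.57 and 5.57, a fall of 0.50. Its 2 dimmer probes had differences of -0.07 and 0.31 and were not called. Hspa4l had -1.75 and -1.78 against -2.56 and -2.63, a rise of 0.83 to 178% of control (limma adjusted p = 0.00292). Between the brightest Hspa4 probe and the Hspa4l probe the change differed by 1.33 (log2), with no overlap of arrays and an exact permutation p of 0.333, the smallest that 2 against 2 arrays allow. The Hspa4l call remained when any 1 array was left out; the Hspa4 call was lost without imatinib array 1, without imatinib array 2, and in no fit that left out a control array.

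Hspa8, the constitutive HSC70, gave 3 different answers on its 3 probes. The brightest, A_55_P2080603, had 7.78 and 7.84 with imatinib against 7.83 and 7.65, overlapping groups and a difference of 0.07 that was not called. A_55_P2069721 had 6.58 and 6.63 against 6.87 and 6.83, a fall of 0.24, and A_52_P12877 had 4.38 and 4.27 against 4.88 and 4.92, a fall of 0.58. The first and the last of these differed in their change by 0.65, again with an exact permutation p of 0.333. The 3 probes give no single direction for the gene.

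The inducible Hspa1a was the other HSP70 gene that rose. It had -4.45 and -4.32 with imatinib against -4.80 and -5.07, a rise of 0.55 ± 0.12 to 147% of control (limma adjusted p = 0.0287). With normexp background correction, which pulls dim signals together, the rise was 0.27 and was still called. The probe is dim, the gene has a near-identical neighbour, Hspa1b, that carries no probe of its own name here, and a signal from either transcript cannot be told apart. The call remained without control array 1 and was lost without each of the other 3 arrays (differences 0.42 to 0.62). Hspa1l, expressed above all in testis, had -5.91 and -5.37 against -5.77 and -5.59, and Hspa2, the testis-enriched HSP70, had -1.09 and -1.17 against -1.04 and -1.04; neither was called.

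The remaining HSP70 genes were lower. Hspa14, which sits on the ribosome, fell by 0.27, from 4.12 and 4.14 to 3.86 and 3.86. Hspa13, in the endoplasmic reticulum, fell by 0.39 and 0.35 on its 2 probes. Hspa12b, a distant relative known from endothelium, fell by 0.63 on a dim probe, from -4.48 and -4.70 to -5.09 and -5.35, and Hspa12a was not well above background on any array. With normexp the differences of Hspa12b and of the dimmer Hspa13 probe were -0.11 and -0.14 and were not called. Of all 9 HSP70 calls in the lower direction, 4 remained without imatinib array 1, 2 without imatinib array 2, 5 without control array 1 and 7 without control array 2.

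Among the genes named as small heat shock proteins, which hold unfolded chains without ATP, 4 of 8 were tested and 2 were called higher. The shares of all tested probes were 19.3% higher and 22.5% lower. Hspb1, or HSP25 in mouse, had -0.61 and -0.54 with imatinib against -1.51 and -1.59, a rise of 0.98 ± 0.07 to 197% of control (limma adjusted p = 0.00248). Hspb11 had 1.54 and 1.57 against 0.85 and 0.92, a rise of 0.67 ± 0.06; despite its name it encodes an intraflagellar transport protein. Both calls remained when any 1 array was left out. Hspb6 had -0.76 and -0.61 against -0.68 and -0.80, with overlap, and Hspb9, a testis member, had -2.68 and -2.53 against -2.36 and -2.40; neither was called. Hspb2, Hspb3 and Hspb8 were not well above background on any array, and Hspb7 was so on 1 imatinib array only.

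HSP40 genes of classes A and B, the main partners of cytosolic HSP70, had calls in both directions. Of 19 tested probes, 4 were called higher, 7 lower and 8 were not called, with a median of 0.00. Over all tested probes 19.3% were called higher and 22.5% lower, so the count of higher probes is near the share over the array. Of the 4 called higher, Dnajb13 entered the test only through the imatinib group. Dnajb1, the inducible HSP40, had 4.11 and 4.08 with imatinib against 3.83 and 3.76, a rise of 0.30 (limma adjusted p = 0.0252). Dnaja4, another heat-inducible J protein, had -1.52 and -1.54 against -2.36 and -2.42, a rise of 0.86 to 182% of control (limma adjusted p = 0.00265). Dnajb14, a J protein anchored in the endoplasmic reticulum membrane and facing the cytosol, had 1.31 and 1.32 against 0.66 and 0.67, a rise of 0.65. In all 3 genes the groups were apart, as in 73.7% of all tested probes. The calls of Dnaja4 and Dnajb14 remained when any 1 array was left out. That of Dnajb1 was lost without imatinib array 1, imatinib array 2 or control array 2 (difference 0.26 to 0.31).

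By the brightest probe, Dnaja1 and Dnaja2 fell, and Dnajb2, Dnajb4 and Dnajb6 were not called. Dnaja1, a major cytosolic J protein, had 4.95 and 4.93 with imatinib against 5.21 and 5.30 on its brightest probe, a fall of 0.32, while its dim probe had a difference of 0.43 that was not called (limma adjusted p = 0.0555) but was called higher with normexp, at 0.29 (limma adjusted p = 0.00513). Dnaja2 fell on both probes, by 0.58 and 0.42; the brighter read 2.22 and 2.16 against 2.77 and 2.77. Dnajb6, known for holding back polyglutamine aggregates, had 4 probes, of which 1 fell by 0.51 and the others had differences of -0.23, 0.00 and 0.00 that were not called. Dnajb2 fell by 0.39 on its dimmer probe, and its brighter probe had -0.01; with normexp the first difference was -0.16 and was not called. Dnajb4 had a difference of 0.08 and was not called.

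The largest falls in these classes were on dim probes of genes known for expression in testis. Dnajb3 had -5.18 and -5.31 with imatinib against -4.37 and -4.34, a fall of 0.89 (limma adjusted p = 0.00369). Dnajb8 had -5.96 and -5.71 against -4.90 and -5.08, a fall of 0.84. With normexp the differences were -0.18 and -0.13, and that of Dnajb8 was not called. Dnajb13, a sperm and cilium J protein, was well above background on both imatinib arrays and on neither control array. It was at least 1.74-fold higher with imatinib, a bound that holds for the processed signal in the main setting. Its fitted difference of 0.95 was 0.32 with normexp and 0.67 with spike-in scaling. Such a bound sets the mean of the imatinib arrays against, on each control array, the higher of the lowest signal that counted as above background and the probe's own signal. Of the 7 calls in the lower direction 3 remained without imatinib array 1, the same number without imatinib array 2, 6 without control array 1 and 5 without control array 2.

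**Figure D3:**
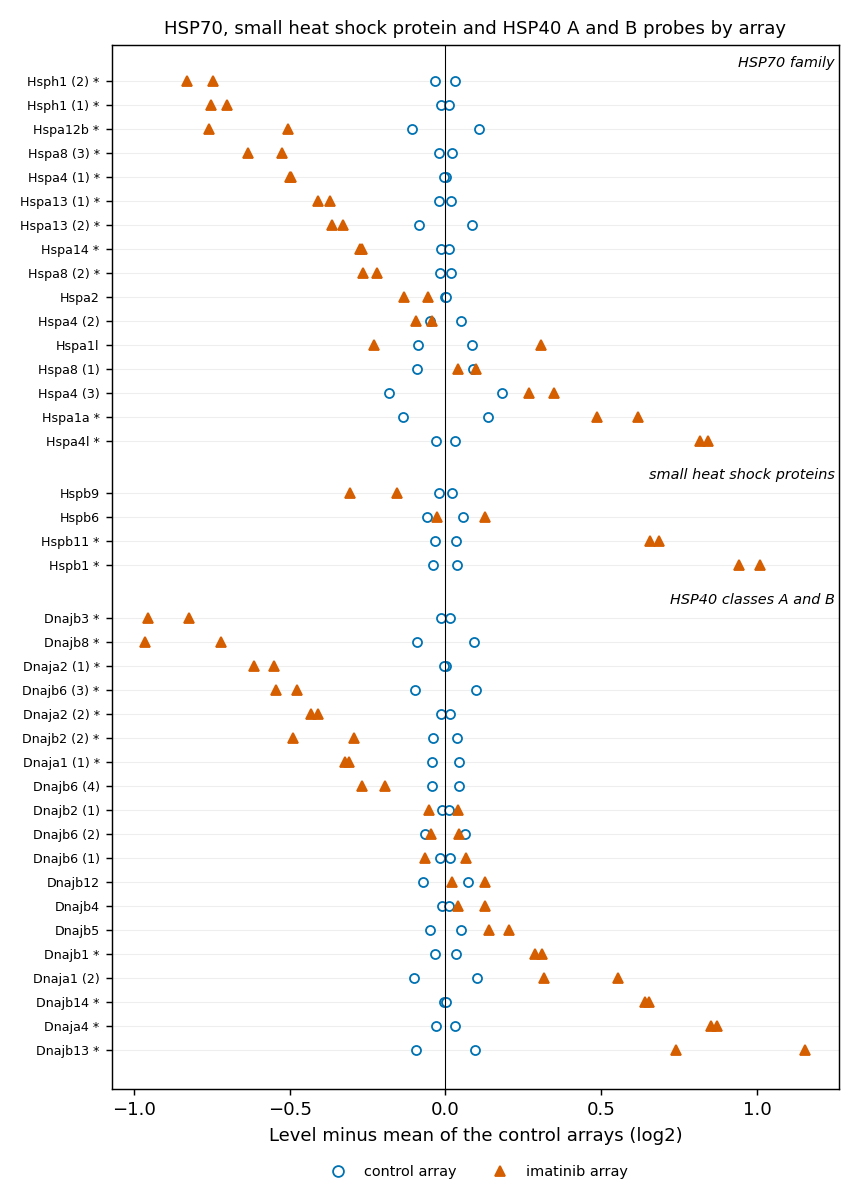
Level of each tested probe on each array minus the mean of the control arrays (horizontal axis, log2) for HSP70, small heat shock protein and HSP40 class A and B probes; triangles are imatinib arrays, circles control arrays, an asterisk marks a call, and numbers in brackets count the probes of a gene from the brightest. Triangles lie left of the circles for Hsph1 and Dnaja2 and right of them for Hspa4l, Hspa1a, Hspb1, Hspb11, Dnajb1, Dnajb14 and Dnaja4, while the 3 Hspa8 probes spread over both sides of 0.

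Class C HSP40 genes share only the J domain and serve many separate tasks. Of their 35 tested probes 14 were called lower, 4 higher and 17 were not called, with a median of -0.20. All tested probes had 22.5% called lower and 19.3% higher. Of the 4 called higher, Dnajc28 and Dnajc5b entered the test only through the imatinib group, and the other 2, Dnajc19 and Dnajc4, remained in the fit of probes above background on all 4 arrays. Dnajc2, which works with Hspa14 at the ribosome, fell most among brightest probes, from 1.56 and 1.60 to 0.90 and 0.85, a fall of 0.70 (limma adjusted p = 0.00406). Its call remained when any 1 array was left out. Dnajc24, a J protein of diphthamide synthesis, fell by 0.47 and 0.44 on its 2 probes. Dnajc13, an endosomal protein, fell by 0.43. Dnajc15, of the inner mitochondrial membrane, fell by 0.33, from 3.78 and 3.69 to 3.44 and 3.39.

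Dnajc4 had 1.77 and 1.81 with imatinib against 1.52 and 1.44, a rise of 0.31 (limma adjusted p = 0.0255). Dnajc28 and Dnajc5b were well above background on both imatinib arrays and on neither control array, so they were tested only through the group where they are high. Their bounds, at least 1.30-fold and 1.14-fold higher, hold for the processed signal in the main setting. Their fitted differences of 0.40 and 0.71 were 0.15 and 0.25 with normexp, where Dnajc28 was not called. With spike-in scaling they were 0.12 and 0.43, and neither was called. Before scaling, the Dnajc28 signals were 10.7 and 10.65 with imatinib and 8.64 and 10.12 without. The 25 tested class C probes of the 15 genes that the naming rule does not reach had 8 calls, all lower, and differences from -0.77 (the dimmer probe of Dnajc11) to 0.32. Of the 14 calls in the lower direction, 2 (Dnajc11 and Dnajc2) remained without imatinib array 1 and likewise without imatinib array 2, 10 without control array 1 and 9 without control array 2. Of the 4 in the higher direction, 1 (Dnajc19) remained without either imatinib array, and 3 without either control array. Dnajc9 was not tested because its spot on control array 1 was marked as an outlier; its other arrays read 4.45 and 4.48 with imatinib and 4.77 in control array 2.

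Dnajc19, a mitochondrial J protein of the import motor, has 2 probes that were called in opposite directions. A_55_P2028243 had 3.44 and 3.33 with imatinib against 1.23 and 1.23, a rise of 2.16 ± 0.07, or 4.46-fold. A_55_P2028248 had 2.11 and 2.06 against 2.46 and 2.38, a fall of 0.33 ± 0.06. Both probes are 60 bases long, and 30 bases of each are shown because the first holds a run of 16 bases of repeated TG, marked in capitals, that the second lacks.
Dnajc19 A_55_P2028243, bases 30 to 59: cttttacTGTGTGTGTGTGTGTGcactcgc
Dnajc19 A_55_P2028248, bases 1 to 30: catgttttgtaataaaaatgcctcagagct

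It was the only chaperone probe with 12 or more bases in a row made of the same pair or triplet. Of all tested probes, 109 held such a TG run, this Dnajc19 probe among them. By limma 105 of the 109 were called higher and 0 lower, with a median difference of 1.90. In 10 the difference was at or above that of this Dnajc19 probe, which may itself be counted there. The rise of this probe was thus shared by most TG-run probes, and their genes were not counted. It was the only change among the 96 chaperone probes that reached 2-fold. The fall of the second probe was lost without imatinib array 1, imatinib array 2 or control array 1 (differences -0.36 to -0.30).

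Of the 18 genes with several tested probes, 5 (Dnaja2, Dnajc24, Dnajc8, Hspa13 and Hsph1) had all probes called lower. In 10 some probes were called lower and the others were not called, in 2 none was called, and Dnajc19 alone had calls in both directions. The range between probes of a gene was 0.03 for Dnajc10, 0.06 for Hsph1, 0.65 for Hspa8, 0.67 for Dnajc5, 0.75 for Dnaja1 and 0.81 for Hspa4. For these last 4 genes the range between probes was larger than the change on any single one of them that was called lower.

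**Figure D4:**
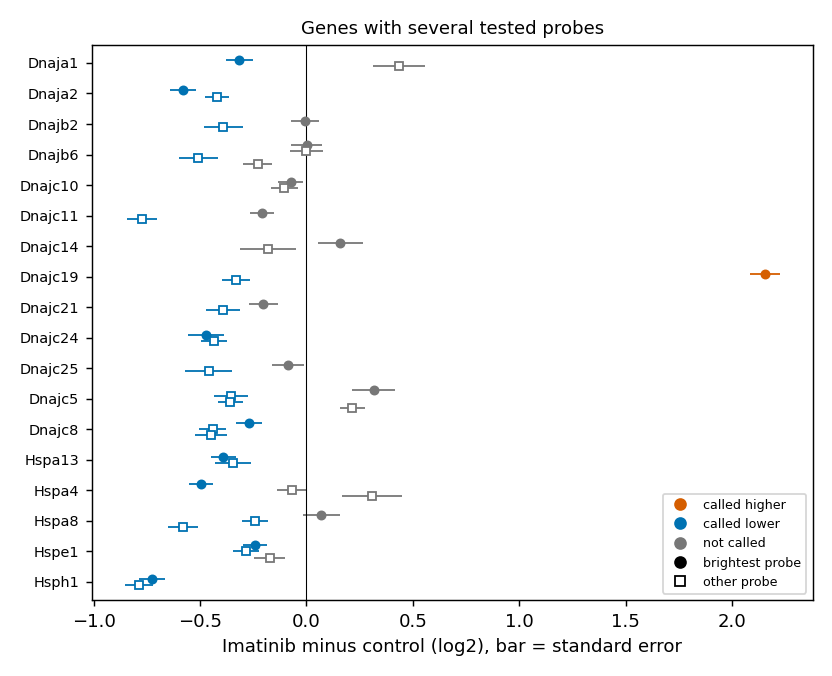
Log2 difference, imatinib minus control, with its standard error, for each tested probe of the 18 genes with several probes; filled circles are the brightest probe of a gene, open squares the others, and colour gives the call. The probes of Hsph1, Hspa13 and Dnajc24 lie together left of 0, those of Hspa8, Hspa4, Dnaja1 and Dnajc5 span 0, and 1 Dnajc19 probe stands alone at 2.16.

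Elsewhere in the pathway, 46 further chaperone genes were listed, and 43 had a tested probe. Taking the brightest probe of each, 21 were called lower, 2 higher and 20 were not called, with a median of -0.23. Counted by probe, 22.5% of all tested probes were called lower and 19.3% higher. Bag2, a co-chaperone that holds back the ubiquitin ligase CHIP, was the lowest, from 0.42 and 0.46 to -0.81 and -0.83, a fall of 1.26. Grpel1, the nucleotide exchange factor of mitochondrial HSP70, fell by 0.87, and Ptges3, the HSP90 co-chaperone p23, fell by 0.33. The dimmer Ptges3 probes had differences of -0.79, -0.70 and -0.10, the last not called. Among the prefoldin genes, whose product hands actin and tubulin to TRiC, Pfdn4 fell by 0.52, Pfdn6 by 0.39 and Pfdn1 by 0.24. By the brightest probe Pfdn2, Vbp1 and Pfdn5 had differences of -0.13, -0.20 and 0.22 and were not called. The dimmer Vbp1 probe had a difference of -0.41 and was called lower. The 2 that rose were Bag3, a stress-induced partner of HSP70, by 0.44, and Serpinh1, the collagen chaperone HSP47, by 1.01 on a dim probe. Of the 17 tested genes of an endoplasmic reticulum chaperone list, 14 were called lower and 0 higher (limma) by the brightest probe, with a median of -0.39. The same shares of all tested probes, 22.5% lower and 19.3% higher, stand beside this count.

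With heat shock elements of 2 units or more as the grouping, the calls were spread over both directions. By the brightest probe, 6 of the 24 genes called lower that had a promoter window held a match (Cct2, Dnaja1, Fkbp4, Hspd1, Hspe1 and Hsph1), as did 3 of the 11 called higher (Dnaja4, Hspa1a and Hspb1), 3 of the 21 not called and 4 of the 10 not tested. The longer element stood in windows of Hspd1, Hspe1 and Hsph1, which were called lower, and of Dnajb6, whose brightest probe was not called.

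The direction of a small change depends on where 0 is set. Centring each array on its median in place of the 75th percentile moved the median of all tested probes to -0.22, and scaling on the 8 spike-in control probes moved it to -0.28. The chaperone median moved by the same amount, to -0.45 and -0.51. Each of these scalings subtracts 1 constant per array, so its distance of 0.23 below the median of all probes could not change. With these scalings 61 and 68 chaperone probes were called lower and 8 and 7 higher, against 39.4% and 46.3% of all tested probes lower and 12.3% and 11.0% higher. All 46 calls in the lower direction remained under both, an outcome favoured in advance because both scalings lowered every difference. Hspb1, Hspb11, Hspa4l, Dnaja4, Dnajb14 and the TG-run probe of Dnajc19 remained higher under both, as did Dnajb13, which was tested only through the group where it is high, and Hspa1a remained higher under median centring alone. Dnajb1 and Dnajc4 had differences of 0.02 and 0.03 under spike-in scaling and were not called, and Hsp90ab1 and Hsf1 were called lower there, at -0.29 and -0.30 (limma adjusted p = 0.0341 and 0.0278).

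**Figure D5:**
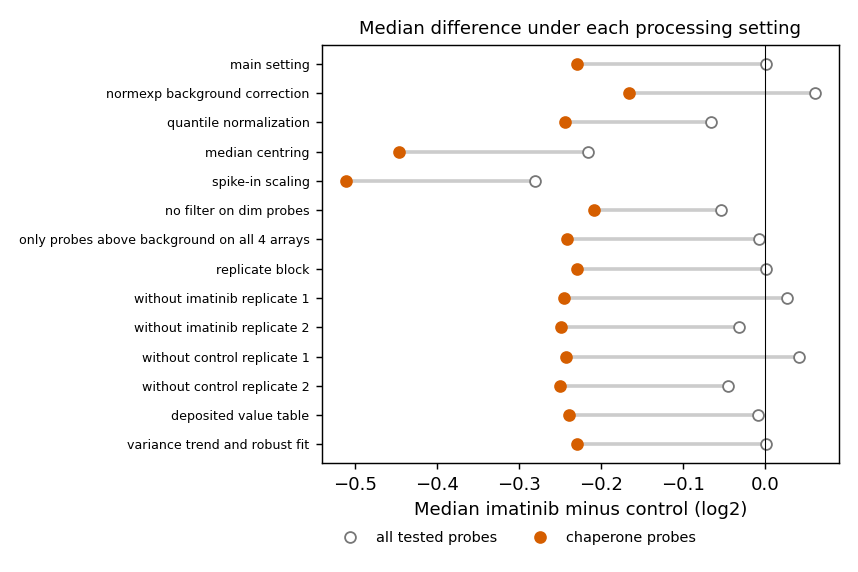
Median log2 difference, imatinib minus control, of the tested chaperone probes (filled circles) and of all tested probes (open circles) under the main setting and 13 alternatives, 1 per line. Both medians shift together with the scaling, from a chaperone median of -0.17 with normexp to -0.51 with spike-in scaling. The chaperone median is left of the median of all probes on every line. For median centring and spike-in scaling the gap is that of the main setting by construction.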

How the data were processed

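The 4 Agilent 1-colour arrays of splenocyte RNA lay on 1 slide. The deposited scanner files hold intensity per spot, which the authors extracted with Feature Extraction. The file headers give 9.1.3.1 as the version of its grid placement. The processed signal is background-subtracted. The deposited value table holds log2 values, and each column equals the log2 processed signal less a constant, within 0.01 for 99.88% to 99.93% of the probes, so its scale, direction and centring on the array are known. Its column medians were -3.99 and -3.92 (imatinib) and -4.10 and -4.17 (control).

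The analysis used the scanner files. Control spots and spots marked as outliers were left out, spots of a probe were averaged on the log2 scale, and the 75th percentile of all non-control spots was subtracted. A probe was tested if all arrays of either group were well above background; 62 probes with a marked value were left out. The comparison used limma 3.58.1 in R 4.3.3 (lmFit and eBayes, two-sided, 2 residual degrees of freedom) and was tested on simulated data. The number of arrays limits the precision. Percent of control is from the difference of mean log2 levels. Sequences are from RefSeq (GRCm38.p6) or the scanner files; accessions of 107 of the 110 probes matched RefSeq.

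Genes were named by role (HSP70, HSP90 and co-chaperones, Hsf1, CCT, mitochondrial, Hspb and cytosolic HSP40 genes, all probes), then up to 8 further genes with the largest rise and 8 with the largest fall past the threshold on all 4 arrays without overlap, by brightest probe, then genes with a bound. Dnajc11, Dnajc9, the members of other lists and genes not above background were named in addition, after their values were seen. The members, gene lists, rule and tests were chosen with earlier results of these data known. The closing section gives 13 alternative settings of the whole fit and the use of 1 probe per gene.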

Additional observations from a re-analysis of the deposited data

How the results depend on the processing

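Against 46 lower and 12 higher chaperone probes, the count lower was 16 and the count higher 6 with no filter on dim probes, where more probes are tested (5.42% and 7.21% of all). It was 29 lower with 1 probe per gene. Spike-in scaling gave 7 higher. Leaving out 1 array gave 10 to 33 lower and 7 to 11 higher, with fewer samples in the fit. The median of -0.23 was -0.17 with normexp background correction, -0.45 with median centring and -0.51 with spike-in scaling. The cause of the normexp shift was not tested. With the replicate number as a block, 25 probes were called lower and 8 higher (13.8% and 14.4% of all). The labels do not say that the numbers pair the arrays, and same-numbered deviations from the group means had a correlation of -0.07. Quantile normalization, the deposited value table, a variance trend with robust fitting and only probes above background on all 4 arrays kept both counts within 1.5 times and the median within the replicate SD of 0.06. Of the 68 named probes 50 were called, none of these changed sign under any alternative, and 13 kept the call under all that could be fitted: Cct3, Cct6a, Hsph1 (2 probes), Dnaja2, Dnaja4, Dnajb3, Dnajb14, Dnajc2, 1 Dnajc19 probe, Hspa4l, Hspb1 and Hspb11. The other 37 lost it under at least 1 alternative; why was not tested.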
